A study of Gallus gallus with 15 samples.

Results

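The 10 genes described here belong to or take their name from the insulin-like growth factor (IGF) system and were measured in chicken breast muscle: the ligands IGF1 and IGF2, the binding proteins IGFBP2, IGFBP3, IGFBP4, IGFBP5 and IGFBP7, and the RNA-binding proteins IGF2BP1, IGF2BP2 and IGF2BP3. All 10 were found among the 17475 genes of the deposited table by their symbols. RNA was sequenced from 15 female Korat chickens, a cross of Thai indigenous males with females of the SUT breeder line, at 10 weeks of age. The groups were 5 birds fed a basal diet with 1% β-alanine, 5 birds fed the basal diet with 0.5% L-histidine and 5 control birds fed the basal diet without a supplement, and the supplements were given from 4 weeks of age. Each library came from the left breast muscle of 1 bird, and each bird came from a separate cage of 20 birds.

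IGF1 and IGF2 are secreted growth factors that act through the receptor IGF1R, and in muscle they are known to promote growth of the fibres and proliferation and differentiation of myoblasts. The IGFBPs are secreted proteins that hold IGFs in the tissue or the circulation and can limit or aid their access to the receptor, while IGFBP7 is a related protein that binds IGFs only weakly. The IGF2BPs are not part of this extracellular system. They are cytoplasmic proteins that bind mRNAs and govern their location, stability and translation, and they take their name from the mRNA of IGF2.

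The genes were singled out with earlier results of these data known, and IGF2BP3 in particular is a gene that the study had selected as changed in these same birds. The values of IGF2BP3 against the control birds are therefore given as a description, with no test. For the other genes the adjusted p is that over all genes tested. Levels are normalized FPKM, the count of a gene divided by its exonic length and by the scaled size of its library, so that genes can be set side by side. The test was run on 11858 genes whose deposited FPKM averaged 0.2 or more, among them 9 of the 10. IGF1 was under this limit.

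The total count was 10620229 to 15381547 fragments per bird. As in muscle, ACTA1, the actin of skeletal muscle fibres, stood at 37170 to 90085 normalized FPKM, although PVALB, a calcium buffer of fast fibres, was at 0 to 0.891. Control replicates 3 and 4 stood apart from the other libraries, because in them long genes had fewer counts relative to short ones. The slope of log2 CPM (counts scaled to library size) on log2 exonic length, taken as the deviation from the mean of all libraries, was -0.27 in both of these libraries per doubling of the length, and -0.09 to 0.14 in the other 13. Results that rest on these birds are also given without them.

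Over the 15 birds, IGFBP7 and IGFBP3 were the most abundant of the genes, at means of 18.0 and 17.9 normalized FPKM. IGFBP7 was above IGFBP3 in 9 of 15 birds, so their order was not settled. IGFBP4 followed at 10.3, IGFBP5 at 7.11, IGF2BP1 at 6.76, IGF2BP2 at 4.29, IGFBP2 at 2.23, IGF2 at 0.929 and IGF2BP3 at 0.710 normalized FPKM. IGFBP3 lay above IGFBP4 in 13 birds, IGFBP4 above IGFBP5 in 11, IGFBP5 above IGF2BP1 in 10 and IGF2BP1 above IGF2BP2 in 11, so these neighbours overlapped. IGF2BP2 was above IGFBP2 in all 15 birds, IGFBP2 above IGF2 in 14, and IGF2 above IGF2BP3 in 11. The ligands thus had the lowest mean levels of the secreted proteins, although IGFBP2 was under IGF2 in β-alanine replicate 1.

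**Figure D1:**
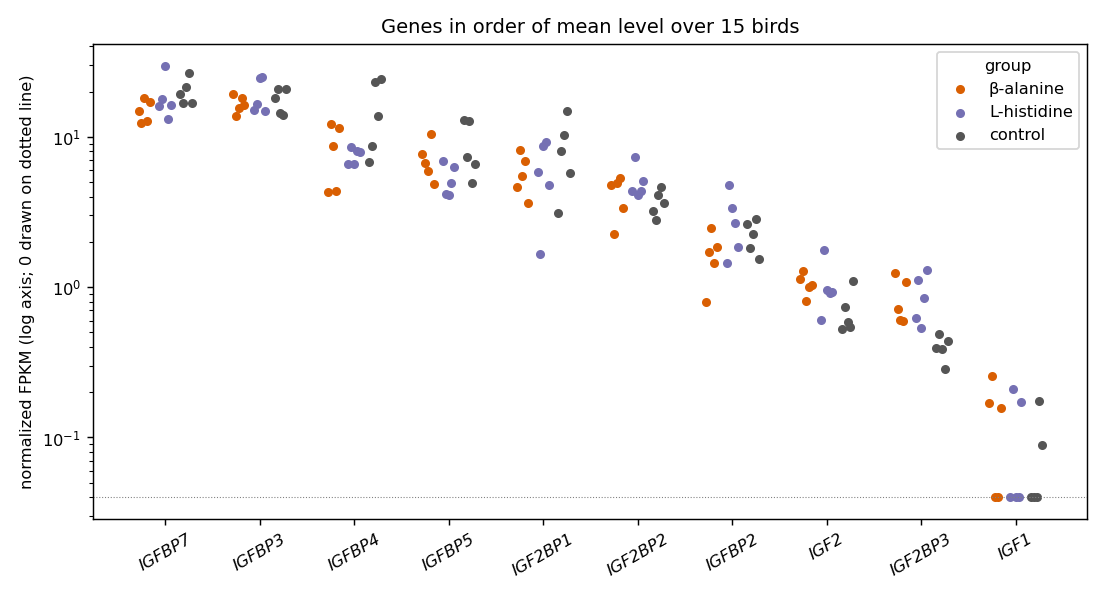
Each point is 1 bird, the genes stand on the horizontal axis in order of their mean over 15 birds, and the vertical axis is normalized FPKM on a log scale, with 0 drawn on the dotted line. The binding proteins IGFBP7 and IGFBP3 lie at means of 18.0 and 17.9, IGF2 at 0.929, and IGF1 at 0 in 8 of 15 birds.

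IGF1, the ligand that mediates growth hormone action, was hardly detected. Its counts were 2, 3, 0, 0 and 2 fragments in β-alanine birds, 0, 3, 0, 0 and 2 in L-histidine birds and 0, 0, 0, 1 and 1 in control birds, or 14 fragments in all. IGF1 lies on chromosome 1 from 55281097 to 55329525 (GRCg6a, plus strand), and only 797 bases of exon were counted for it. At this depth no difference in IGF1 between diets was detectable, and no fold change is given.

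IGF2, on chromosome 5 from 13964428 to 13981564 (plus strand), is the ligand best known for fetal growth in mammals. It had 1.13, 1.29, 0.813, 1.01 and 1.03 normalized FPKM in β-alanine birds, 0.606, 1.76, 0.963, 0.921 and 0.923 in L-histidine birds, and 0.527, 0.741, 0.589, 0.540 and 1.10 in control birds. All 5 β-alanine birds lay above the control mean of 0.699 ± 0.239 (SD, n = 5), but control replicate 5 lay within their range. The log2 fold change was 0.58 (standard error 0.29) in the β-alanine group and 0.56 (standard error 0.29) in the L-histidine group, and neither passed the quasi-likelihood test of edgeR after Benjamini-Hochberg adjustment (adjusted p = 0.487 and 0.299). L-histidine replicate 2 held the highest IGF2 of all birds, and without it the log2 fold change in that group was 0.27. The gene labelled INS-IGF2, 14305 bases away, had 0 to 3 fragments per bird.

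The summed level of the 5 binding proteins was 48.7 ± 2.42 normalized FPKM in β-alanine birds, 53.6 ± 9.04 in L-histidine birds and 64.2 ± 7.50 in control birds (SD, n = 5 each). The β-alanine birds lay between 46.7 and 51.6 and the control birds between 55.5 and 73.9, without overlap, whereas L-histidine birds ranged from 46.2 to 68.7. In control replicates 3 and 4 the sum was 73.9 and 61.9, and in the other 3 control birds it was 55.5 to 69.9. Of this sum, IGFBP3 made up 34.3% ± 5.27 in β-alanine birds, 35.7% ± 6.28 in L-histidine birds and 27.99% ± 7.10 in control birds. The share of IGFBP4 was 16.8% ± 7.54, 14.4% ± 2.87 and 22.95% ± 9.90 in the β-alanine, L-histidine and control birds. Control replicate 4 had the lowest scaling factor of all libraries, 0.678. In deposited FPKM, scaled to library totals only, the sum of control replicate 4 lay under that of every β-alanine bird. The lack of overlap thus depended on the scaling, and nothing is read from it. The sum is a description of the chosen genes and was not tested.

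IGFBP4, an inhibitor of IGF action that gives up its ligand when the protease PAPPA cleaves it, lies on chromosome 27 from 7262040 to 7267335 (plus strand). It had 4.32, 12.1, 8.75, 4.37 and 11.4 normalized FPKM in β-alanine birds, 6.58, 8.51, 6.59, 8.07 and 7.93 in L-histidine birds, and 6.79, 8.65, 23.0, 13.7 and 24.1 in control birds. The difference lay in control replicates 3, 4 and 5, which were above every supplemented bird, whereas control replicates 1 and 2 were within the range of the β-alanine birds. The L-histidine birds were close to each other, with a coefficient of variation of 11.8%, against 52.5% in control birds. The log2 fold change was -0.90 (standard error 0.35) in the β-alanine group and -1.02 (standard error 0.35) in the L-histidine group. Neither passed edgeR's test (adjusted p = 0.437 and 0.180), and without control replicates 3 and 4 the log2 fold changes were -0.68 and -0.80.

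IGFBP5, a binding protein of the extracellular matrix that differentiating muscle cells secrete, lies on chromosome 7 from 23231238 to 23249160 (plus strand). It had 7.68, 6.75, 5.93, 10.4 and 4.87 normalized FPKM in β-alanine birds, 6.93, 4.19, 4.10, 4.90 and 6.26 in L-histidine birds, and 13.1, 7.40, 12.7, 4.94 and 6.58 in control birds. All L-histidine birds were under the control mean of 8.94, though the groups overlapped, since control replicates 4 and 5 were as low. The log2 fold change was -0.33 (standard error 0.27) with β-alanine and -0.76 (standard error 0.28) with L-histidine, and by edgeR the adjusted p was 0.651 and 0.183. In the β-alanine group the log2 fold change was -0.16 without control replicate 1, -0.17 without control replicate 3 and -0.51 without β-alanine replicate 4.

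IGFBP2, a binding protein abundant in blood, is the neighbour of IGFBP5, with 3007 bases between their 3′ ends (from 23252168 to 23328028 on the minus strand). It had 0.801, 1.71, 2.47, 1.44 and 1.86 normalized FPKM in β-alanine birds, 1.46, 4.78, 3.38, 2.68 and 1.85 in L-histidine birds, and 2.62, 1.81, 2.27, 2.84 and 1.53 in control birds. The lowest value was in β-alanine replicate 1 and the highest in L-histidine replicate 2, with overlap among all groups. The log2 fold change was -0.41 (standard error 0.32) with β-alanine and 0.36 (standard error 0.32) with L-histidine, and by edgeR the adjusted p was 0.630 and 0.535. Without β-alanine replicate 1 the value with β-alanine was -0.24, and without L-histidine replicate 2 the value with L-histidine was 0.083. Over the 15 birds, log2 levels of IGFBP2 and IGFBP5 had a Pearson correlation of -0.41 and a Spearman correlation of -0.60, given as a description.

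IGFBP3, the main carrier of IGFs in the circulation, lies on chromosome 2 from 54932446 to 54948020 (minus strand). It was the steadiest of the 9 genes tested, with 16.6 ± 2.21 normalized FPKM in β-alanine birds, 19.3 ± 5.21 in L-histidine birds and 17.7 ± 3.35 in control birds (SD, n = 5 each). Its lowest and highest values were 13.7 and 19.4 in β-alanine birds, 14.8 and 25.1 in L-histidine birds, and 14.01 and 20.9 in control birds. The log2 fold changes were -0.09 and 0.12 (standard error 0.19 each), with adjusted p of 0.872 and 0.741 by edgeR. Leaving out each bird in turn gave -0.16 to -0.024 and 0.0071 to 0.20, and their sign turned under some other settings.

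IGFBP7, on chromosome 4 from 49164546 to 49181417 (plus strand), is a protein of vessel walls and other stroma. It had 14.9, 12.4, 18.3, 12.7 and 17.1 normalized FPKM in β-alanine birds, 16.1, 17.8, 29.8, 13.2 and 16.4 in L-histidine birds, and 19.3, 16.8, 21.4, 26.5 and 16.7 in control birds. All β-alanine birds were under the control mean of 20.1, although the highest of them was above the lowest controls. The log2 fold change was -0.42 (standard error 0.21) with β-alanine and -0.11 (standard error 0.21) with L-histidine (adjusted p = 0.489 and 0.790 by edgeR). Without control replicates 3 and 4 these values were -0.22 and 0.089, and leaving out each bird in turn gave -0.34 (without L-histidine replicate 3) to 0.0085 (without control replicate 4) with L-histidine. The span of IGFBP7 shares 3039 bases with POLR2B on the opposite strand, which had a mean of 17.1 normalized FPKM, and the sources used here do not say whether the counting used the strand.

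**Figure D2:**
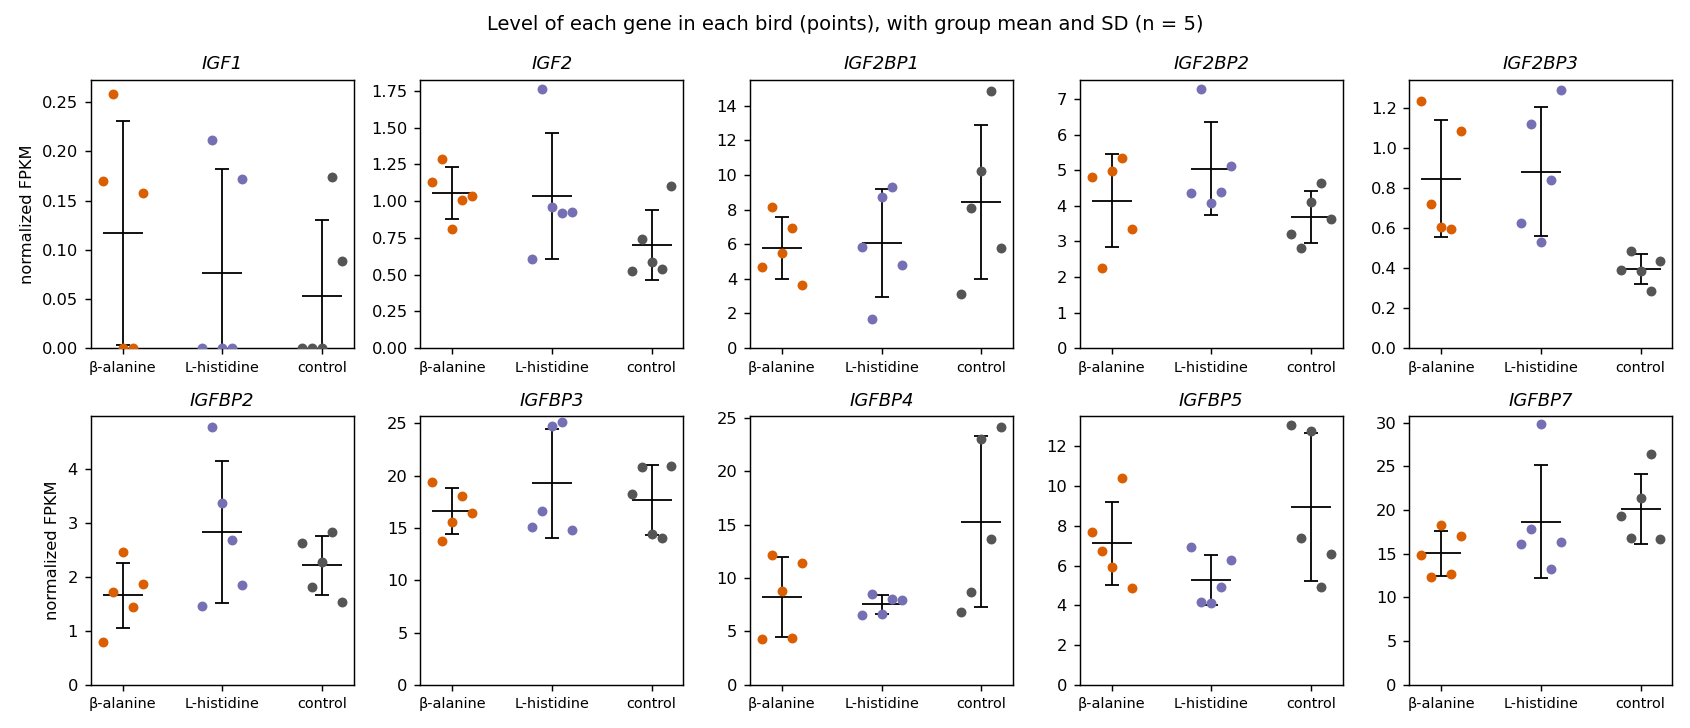
Normalized FPKM of the 10 genes, with 1 point per bird, a horizontal line at the group mean and bars of 1 SD (n = 5 birds per group), and each panel has its own vertical axis from 0. IGF2BP3 is the gene whose control birds, at 0.285 to 0.486, all lie under the birds of both supplemented groups.

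Among the RNA-binding proteins, IGF2BP3 lies on chromosome 2 from 31154362 to 31261778 (minus strand). In mammals it is known as a fetal and tumour protein that is scarce in most adult tissues. Its counts were 89, 51, 49, 40 and 84 fragments in β-alanine birds, 53, 97, 35, 63 and 92 in L-histidine birds, and 24, 35, 22, 10 and 30 in control birds. Scaled, these were 1.24, 0.720, 0.607, 0.595 and 1.09 normalized FPKM in β-alanine birds, 0.628, 1.12, 0.531, 0.841 and 1.29 in L-histidine birds, and 0.392, 0.486, 0.388, 0.285 and 0.436 in control birds. Every supplemented bird lay above every control bird. Such a lack of overlap with a higher supplemented group was found for 0.852% of genes tested in the β-alanine group and for 0.978% in the L-histidine group, and nothing is read from it for a gene chosen on these contrasts.

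The level of IGF2BP3 averaged 0.849 ± 0.295 in β-alanine birds, 0.883 ± 0.322 in L-histidine birds and 0.398 ± 0.0741 in control birds (SD, n = 5 each). This corresponds to 2.11-fold (log2 fold change 1.08, standard error 0.31) and 2.20-fold (log2 fold change 1.14, standard error 0.31) the control level, with the same 5 control birds in both comparisons. Leaving out each bird in turn gave log2 fold changes of 0.90 to 1.18 with β-alanine and 0.96 to 1.27 with L-histidine. Without control replicates 3 and 4 they were 0.96 and 1.01, and with the length trend of each library removed they were 1.01 and 1.01. The standard errors and all of these values come from the birds on which the gene was chosen. They are a description and no independent support for the difference. The spread was wider in the supplemented groups, with coefficients of variation of 34.7% and 36.5%, against 18.6% in control birds. IGF2BP3 shares 964 bases with MALSU1, a gene of the mitochondrial ribosome on the opposite strand at a mean of 9.91 normalized FPKM, and log2 levels of the 2 genes had a Pearson correlation of -0.09 over 15 birds.

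IGF2BP1, first studied in chicken as the protein that binds the zipcode of β-actin mRNA, lies on chromosome 27 from 6056993 to 6081137 (minus strand). It had 4.67, 8.13, 5.48, 6.94 and 3.64 normalized FPKM in β-alanine birds, 5.82, 1.66, 8.75, 9.32 and 4.82 in L-histidine birds, and 3.14, 8.10, 10.2, 14.8 and 5.79 in control birds. All 5 β-alanine birds were under the control mean of 8.42 ± 4.46, and the highest values were those of control replicates 3 and 4. The log2 fold changes were -0.54 and -0.47 (standard error 0.41 each) with β-alanine and L-histidine, with adjusted p of 0.627 and 0.535 by edgeR. Without control replicates 3 and 4 they were 0.025 and 0.096, and without control replicate 4 alone -0.24 and -0.17. Without L-histidine replicate 2 the value with L-histidine was -0.22.

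IGF2BP2, on chromosome 9 from 4590660 to 4607678 (plus strand), is the member of the family that adult tissues, muscle included, are known to express. It had 4.81, 2.26, 4.97, 5.36 and 3.35 normalized FPKM in β-alanine birds, 4.35, 7.30, 4.08, 4.39 and 5.13 in L-histidine birds, and 3.20, 2.82, 4.11, 4.65 and 3.64 in control birds. All 5 L-histidine birds were above the control mean of 3.69, with overlap. The log2 fold changes were 0.18 and 0.46 (standard error 0.24 each), and the adjusted p by edgeR was 0.799 with β-alanine and 0.293 with L-histidine. Without control replicates 3 and 4 they were 0.37 and 0.65. Leaving out each bird in turn gave 0.065 (without β-alanine replicate 4) to 0.33 (without β-alanine replicate 2) with β-alanine, and 0.29 (without L-histidine replicate 2) to 0.55 (without control replicate 4) with L-histidine.

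Of the summed level of the 3 IGF2BPs, IGF2BP3 made up 8.32% ± 3.93 in β-alanine birds, 7.64% ± 3.44 in L-histidine birds and 3.72% ± 1.70 in control birds (SD, n = 5 each). IGF2BP1 made up 53.0% ± 11.9, 48.5% ± 20.1 and 64.2% ± 11.5 of it in β-alanine, L-histidine and control birds. IGF2BP1 was therefore the most abundant of the family in most birds, with L-histidine replicate 2 as the lowest at 16.4%.

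Of the 8 tested genes other than IGF2BP3, 0 were called in any comparison by edgeR (quasi-likelihood, 1.5-fold or more with a Benjamini-Hochberg adjusted p below 0.05), and over all 11858 genes the share called was 0%. IGF2BP3 was left out of the count because it was chosen on these contrasts, not because it was called. DESeq2 on the same birds also called 0 of these 8, while it called 0.352% of its 15897 genes with β-alanine (0.17% as higher) and 1.42% with L-histidine (0.478% as higher). DESeq2 gave no adjusted p for IGF2 and IGF2BP3 in the L-histidine group. At an unadjusted p under 0.05 by edgeR, 0 of these 8 were higher and 1 was lower with β-alanine (IGFBP4), where 10.6% of all genes met this limit, 4.47% as higher and 6.17% as lower. With L-histidine 0 were higher and 2 were lower (IGFBP4 and IGFBP5), where 19.2% of all genes did, 7.99% as higher and 11.2% as lower. None of the 8 genes lay wholly below the control birds without overlap, which 0.869% of all genes did with β-alanine and 1.05% with L-histidine. The median log2 fold change of the 8 was -0.37 with β-alanine and 0.0064 with L-histidine, against -0.02 and 0.01 over all genes.

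**Figure D3:**
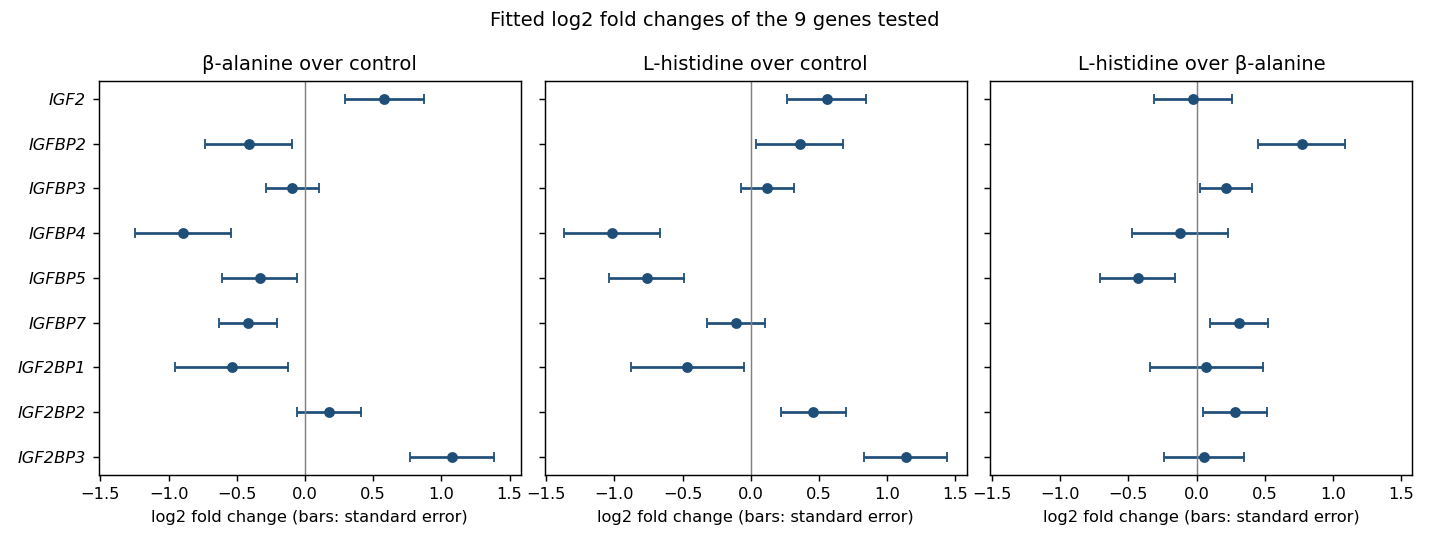
Fitted log2 fold changes of the 9 genes tested (points) with standard errors (bars), in 3 panels for β-alanine over control, L-histidine over control and L-histidine over β-alanine. IGF2BP3 lies at 1.08 and 1.14 over control, IGFBP4 at -0.90 and -1.02, and IGFBP2 at 0.77 in L-histidine over β-alanine.

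The difference between the supplements was fitted directly, without control birds in the contrast. IGFBP2 had the widest difference, at 2.83 ± 1.32 normalized FPKM in L-histidine birds and 1.66 ± 0.609 in β-alanine birds (SD, n = 5 each), so that the log2 difference was 0.77 (95% interval 0.10 to 1.44, adjusted p = 0.983 by edgeR). Without L-histidine replicate 2 it was 0.49. IGFBP5 differed by -0.43 (95% interval -1.01 to 0.15) and IGFBP7 by 0.31 (95% interval -0.13 to 0.75). For IGF2 the difference was -0.03 (95% interval -0.63 to 0.58), for IGF2BP1 0.07 (from -0.80 to 0.94) and for IGFBP4 -0.12 (from -0.86 to 0.62). IGF2BP2 differed by 0.28 (95% interval -0.21 to 0.78) and IGFBP3 by 0.21 (from -0.19 to 0.62). A difference of 1.5-fold in at least 1 direction lay within the interval of each of these genes. By edgeR, 1 of the 9 genes (IGFBP2) had an unadjusted p under 0.05 in this contrast, where 4.02% of all genes did, 2.51% as higher in L-histidine birds.

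The levels of several genes moved with the length slope of the libraries. Over 15 birds, log2 levels had Pearson correlations with the slope of -0.63 for IGFBP4, -0.58 for IGF2BP1, -0.55 for IGFBP7 and 0.60 for IGF2BP3. The points share the 2 libraries with a slope of -0.27, both of them control birds. The part of this trend in the differences between diets was not tested beyond the values given without these birds and with the trend removed. With the trend removed, IGFBP4 had log2 fold changes of -0.78 and -0.83 and IGF2BP1 of -0.42 and -0.31 with β-alanine and L-histidine. Those of IGFBP7 were then -0.47 and -0.18.

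**Figure D4:**
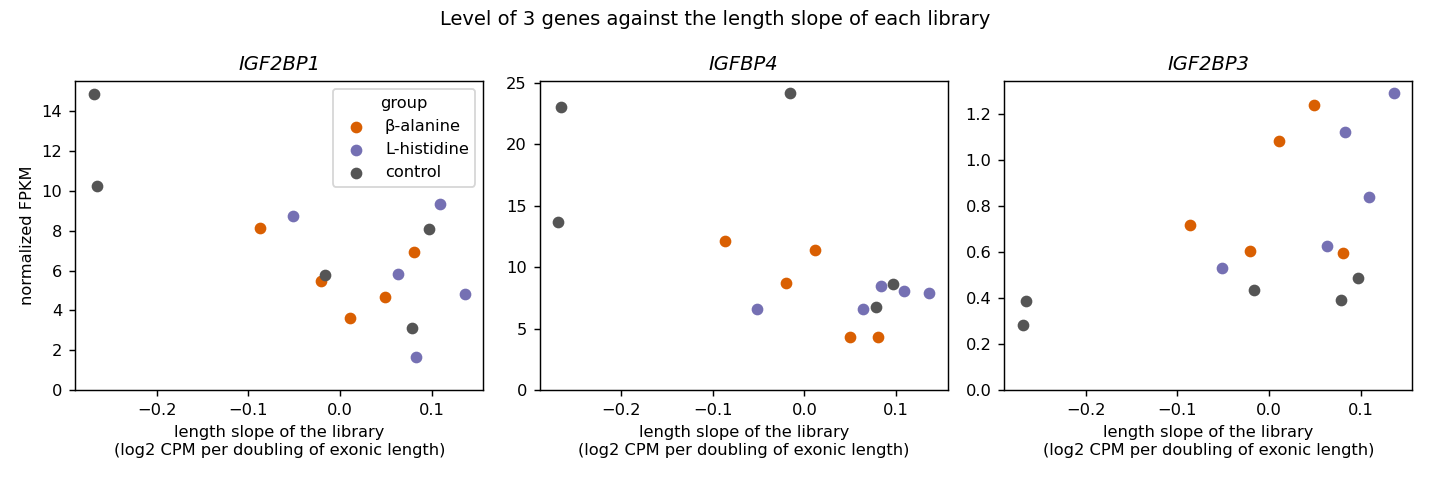
Normalized FPKM of IGF2BP1, IGFBP4 and IGF2BP3 (vertical axes from 0) against the length slope of each library in log2 CPM per doubling of exonic length, with 1 point per bird coloured by group. Control replicates 3 and 4 lie at a slope of -0.27, where IGF2BP3 is at 0.388 and 0.285, and the other 3 control birds lie at 0.392 to 0.486.

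Genes named as receptors of IGFs or insulin were measured in the same libraries. IGF1R, the receptor that signals for both IGFs, had 2.25, 1.93, 2.98, 2.20 and 2.61 normalized FPKM in β-alanine birds, 2.31, 2.80, 1.898, 2.95 and 2.67 in L-histidine birds, and 1.86, 1.66, 0.753, 0.713 and 1.73 in control birds. No supplemented bird overlapped with a control bird, as was so for 0.852% of all genes with β-alanine and 0.978% with L-histidine in the higher direction, against the same 5 control birds. The log2 fold changes were 0.82 and 0.90 (standard error 0.26 each), and without control replicates 3 and 4, the lowest birds, they were 0.46 and 0.54. They were 0.78 and 0.81 with the length trend removed. By edgeR the adjusted p was 0.402 with β-alanine and 0.170 with L-histidine, and DESeq2 called IGF1R with L-histidine (adjusted p = 0.0432). INSR, the insulin receptor, averaged 7.31 ± 1.39 in β-alanine birds, 7.60 ± 1.56 in L-histidine birds and 5.51 ± 1.36 in control birds, all as normalized FPKM (SD, n = 5 each). IGF2R clears IGF2 in mammals, a role that was not examined here in chicken. It averaged 5.90 ± 1.14 in β-alanine birds, 6.48 ± 2.40 in L-histidine birds and 4.61 ± 0.786 in control birds. Neither passed edgeR's test. The log2 fold changes with β-alanine and L-histidine were 0.41 and 0.46 for INSR and 0.36 and 0.49 for IGF2R. Without control replicates 3 and 4 they were 0.53 and 0.58 for INSR and 0.26 and 0.39 for IGF2R. With the length trend removed they were 0.17 and 0.077 for INSR and 0.22 and 0.24 for IGF2R.

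A list of 47 other genes of the pathway, from growth hormone and its receptor to IRS adaptors, AKT, mTOR and MAP kinases, had 45 genes in the table and 39 tested. By edgeR 0 passed in either direction. At an unadjusted p under 0.05, 8 of the 39 were higher and 1 lower with β-alanine, where 4.47% of all genes were higher and 6.17% lower. With L-histidine 10 were higher and 3 lower, where 7.99% of all genes were higher and 11.2% lower. Both counts of higher genes include FOXO1, IRS2 and TSC1, which the study had listed as changed in these birds (TSC1 with β-alanine). The median log2 fold change of the list was 0.10 and 0.16, against -0.02 and 0.01 over all genes. DESeq2 called 0 with β-alanine, and with L-histidine 3 higher (IRS2, IGF1R and TSC1) and 1 lower (EIF4EBP1), where it called 0.478% of all genes as higher and 1.42% in either direction.

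The smallest p with β-alanine belonged to TSC1, a brake on mTOR, at a log2 fold change of 0.67, FOXO1, a transcription factor restrained by insulin and IGF signalling and also selected by the study on these birds, at 1.34, and the adaptor IRS4 at 0.63. On the other side were the kinase MAP2K1 at -0.43 and HTRA1, a protease that cleaves IGFBPs, at -0.34. With L-histidine the adaptor IRS2 was at 1.63, IGF1R at 0.90 and TSC1 at 0.65, while EIF4EBP1, a repressor of translation initiation under mTOR, was at -0.77, MAP2K1 at -0.46 and STAT5B, a transcription factor of growth hormone signalling, at -0.59. By edgeR, their adjusted p lay between 0.346 and 0.475 with β-alanine and between 0.170 and 0.240 with L-histidine. The study had also listed TSC1 with β-alanine, and IRS2 with both supplements, as changed in these birds, so their values are no independent finding. Without control replicates 3 and 4, MAP2K1 was at -0.18 and -0.21 and TSC1 at 0.45 and 0.44 with β-alanine and L-histidine. With L-histidine STAT5B was then at -0.15, EIF4EBP1 at -0.67 and IRS2 at 2.21. With the length trend removed, MAP2K1 was at -0.37 and -0.39 and TSC1 at 0.58 and 0.49. EIF4EBP1 was then at -0.46, IRS2 at 1.24 and STAT5B at -0.68 with L-histidine. With β-alanine FOXO1 was at 1.07, IRS4 at 0.64 and HTRA1 at -0.28 without these control birds. They were at 1.26, 0.51 and -0.25 with the trend removed.

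Between the supplements, EIF4EBP1 had 415 ± 93.7 normalized FPKM in L-histidine birds and 655 ± 149 in β-alanine birds, a log2 difference of -0.66 (standard error 0.20), and HTRA1 had 19.6 ± 1.33 in L-histidine birds and 15.2 ± 2.82 in β-alanine birds, a log2 difference of 0.37 (standard error 0.17). Beside them stood PIK3R2, a regulatory subunit of phosphoinositide 3-kinase, at 0.15, STAT5B at -0.42 and GHR, the growth hormone receptor, at -0.35. None of these passed edgeR's test, with an adjusted p of 0.983 for each.

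**Figure D5:**
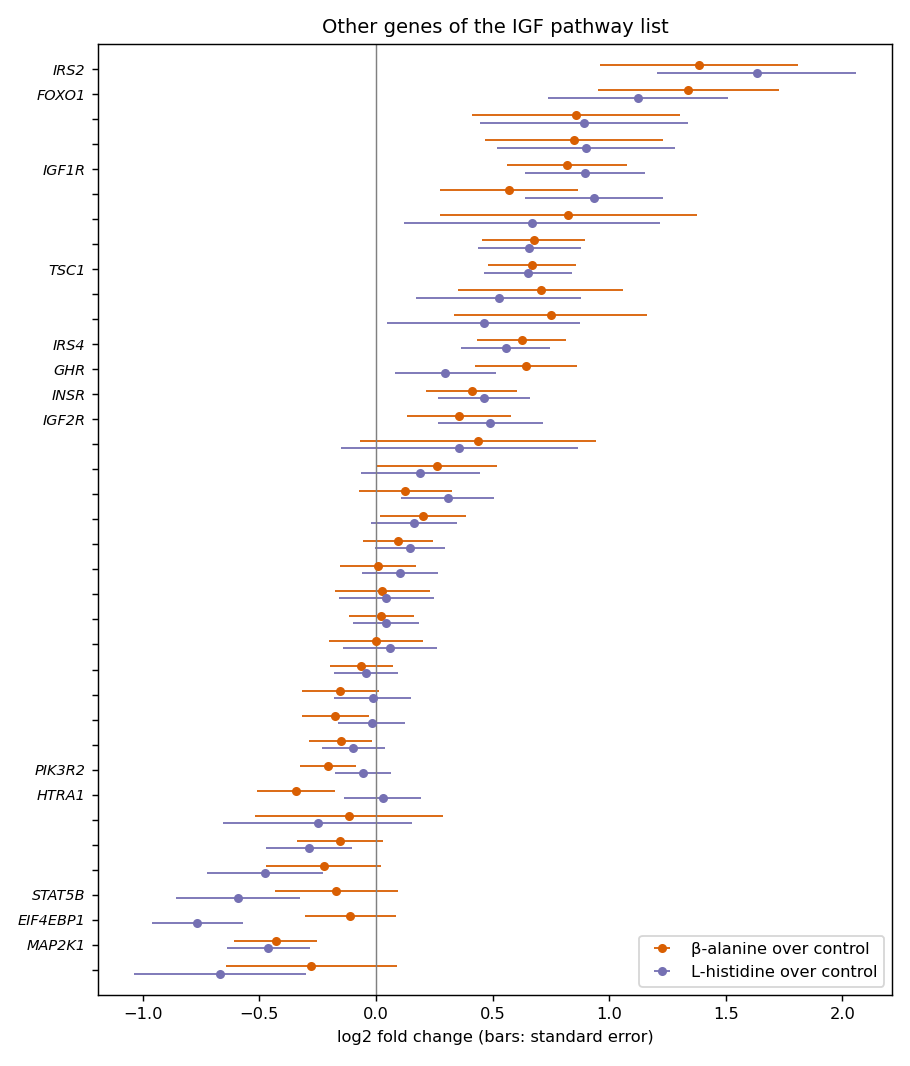
Log2 fold changes over control of 37 of the 39 tested genes of the pathway list, with the genes named in the text labelled, standard errors as bars, for β-alanine (upper point of each pair) and L-histidine (lower point), ordered by the sum of the values. IRS2 lies highest at 1.38 and 1.63, and 0 of the 39 passed edgeR's test in either group, which share the same control birds.

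Some other regulators of the ligands were scarce in breast muscle, although HTRA1 had group means of 15.2 to 19.6 normalized FPKM. IGFBP1, a binding protein that the liver secretes, had 12 fragments in β-alanine replicate 2, 1 each in β-alanine replicate 3 and L-histidine replicate 4, and 0 in the other birds. IGFALS, the subunit that holds IGFBP3 and IGF in the circulating complex, had 0 to 10 fragments per bird, with the highest count in the same β-alanine replicate 2. These genes, with PAPPA, PAPPA2, STC1 and GRB14, were under the limit of 0.2 for the mean FPKM.

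The genes differed in how much they varied between birds of a group. IGFBP4 and IGF2BP1 had coefficients of variation within groups of 49.7% and 48.9%, above 83.1% and 82.5% of all genes tested, and IGFBP3 had 21.3%, above 27.4%. The median over all genes was 28.4%. The most abundant members, IGFBP7 and IGFBP3, lay at percentiles of 80.2 and 80.1 of the levels of all genes tested, and IGF2 and IGF2BP3 at 20.1 and 15.7.

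For each gene, the tested genes whose log2 levels followed it most closely over the 15 birds were listed as a description, since these were the highest of 11858 correlations and all share library and depth. IGF2BP3 was followed by CCDC82 (Pearson r = 0.918, Spearman rho = 0.939), KLHL24 (0.875 and 0.868) and DDX5 (0.852 and 0.886), and without the 2 birds farthest from the median the Pearson r was 0.887, 0.841 and 0.812. Their Pearson r with IGF2BP3 was 0.817, 0.787 and 0.779 with group means removed. IGF2BP1 was followed by PGPEP1 (Pearson r = 0.943, Spearman rho = 0.929), C26H6orf106 (0.926 and 0.854) and PLPP7 (0.920 and 0.896). With group means removed, PGPEP1 and IGF2BP1 had a Pearson r of 0.963. IGFBP4 was followed by MYO1D (Pearson r = 0.886), RMI2 (0.835) and THBD (0.817), IGFBP5 by MXD1 (0.871), FOXO6 (0.824) and CCAH221 (0.791), and IGFBP7 by ZNF503 (0.869), BVES (0.838) and CTSH (0.827). For IGF2 they were AUH (Pearson r = 0.858), GALNT11 (0.848) and NRN1 (0.836), for IGFBP3 SPTBN5 (0.821), P4HA1 (0.787) and ALKBH3 (0.783), for IGFBP2 EPHB1 (0.811), HHATL (0.757) and GSTT1 (0.747), and for IGF2BP2 FLNA-2 (0.830), F8 (0.800) and HSPB7 (0.791). The likeness rested partly on the 2 birds farthest from the median for IGF2BP2, with a Pearson r of 0.521 to 0.583 without them, and for IGFBP2, with 0.477 to 0.624. It also fell to 0.572 for BVES and 0.582 for CTSH with IGFBP7 and to 0.6004 for CCAH221 with IGFBP5, while over all pairs listed it was 0.477 to 0.887. For THBD with IGFBP4 it was 0.634, and with group means removed the Pearson r of this pair was 0.738. The study had listed THBD as lower with β-alanine in these birds.

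Among the genes themselves, the highest Pearson correlation over 15 birds was that of IGF2 and IGF2BP3, at 0.677, with a Spearman correlation of 0.636 and a Pearson correlation of 0.456 with group means removed. For IGFBP2 and IGFBP7 these were 0.533, 0.696 and 0.458. IGF2BP1 and IGF2BP3 ran in opposite directions, with a Pearson correlation of -0.56 and -0.55 with group means removed.

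Markers of other cell types were read in the same birds, since in whole muscle fewer cells of a type and less RNA per cell cannot be told apart. The summed level of 6 fat cell markers (PLIN1, FABP4, ADIPOQ, CIDEC, LPL and PLIN4) was 80.2 to 134 in β-alanine birds, 82.7 to 271 in L-histidine birds and 109 to 425 in control birds, highest in control replicate 5, the bird with the highest IGFBP4. FABP4 made up 239 of the sum in that bird, in which PLIN1, CIDEC and LPL were also highest. ADIPOQ was highest in L-histidine replicate 5 and PLIN4 in L-histidine replicate 1. Over 15 birds the log2 sum of all 6 markers had a Pearson correlation of 0.60 and a Spearman correlation of 0.47 with IGFBP4. The sum of 7 measured fast fibre genes was 70428 to 97599 in β-alanine birds, 56682 to 104989 in L-histidine birds and 87091 to 139713 in control birds. Most of it was ACTA1, at 37170 to 90085. ACTA1, MYH1E, TNNT3, TNNI2 and MYLPF were highest in control replicate 4, and PVALB in control replicate 5. MYH1F was highest in L-histidine replicate 2, at 89.8. With group means left in, the log2 sum had a Pearson correlation of -0.68 and a Spearman correlation of -0.69 with IGF2BP3. The 6 smooth muscle and pericyte markers summed to 56.3 to 114 in β-alanine birds, 85.4 to 270 in L-histidine birds and 80.6 to 155 in control birds, highest in L-histidine replicate 2, the bird with the highest IGF2BP2 and IGFBP2. In that bird CNN1 alone made up 190.8 of the sum, and the other 5 markers summed to 79.1, against 83.1 to 117 in the other L-histidine birds. The log2 sum of all 6 had a Pearson correlation of 0.66 and a Spearman correlation of 0.24 with IGF2BP2. L-histidine replicate 2 also held the highest sum of 5 measured immune markers, 566. Each of these 5 (PTPRC, CD3E, CSF1R, CD74 and LCP1) was highest in it. The sum of 6 fibroblast markers was 409 in that bird, the highest of its group, and 466 in control replicate 5, the highest of all birds.

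The 5 satellite cell markers (PAX7, MYF5, MYOD1, MYOG and CDH15) summed to 110.1 to 221 in β-alanine birds, 153 to 330.0 in L-histidine birds and 64.4 to 216 in control birds, also highest in L-histidine replicate 2. In that bird MYOD1 alone was at 275 normalized FPKM. The study had listed MYOD1 as higher with L-histidine in these same birds. PAX7 was highest in control replicate 2, and MYF5, MYOG and CDH15 were highest in control replicate 4. The log2 sum of all 5 markers, which was mostly MYOD1, had a Pearson correlation of 0.65 and a Spearman correlation of 0.57 with IGF2BP2. The 6 endothelial markers summed to 48.9 to 82.0 in β-alanine birds, 67.7 to 94.1 in L-histidine birds and 56.5 to 69.1 in control birds. Their log2 sum had Spearman correlations of 0.60 with IGF2BP3 and -0.56 with IGFBP4 and Pearson correlations of 0.47 and -0.42. PECAM1 had the widest range, 8.13 to 46.4, and the study had listed it as higher with L-histidine. PECAM1, KDR and TEK were highest in L-histidine birds, CDH5 in a β-alanine bird, and VWF and ESAM in control replicate 4. No marker of these lists but CIDEC, at 0 in 3 birds, and PVALB, at 0 in 2 birds, was at 0 in any bird. The correlations given were picked from those of each tested IGF gene with every marker list. Among the others were Pearson correlations of 0.57 for IGFBP7 with the fast fibre sum and -0.54 for IGFBP3 with the immune sum. IGFBP7 had -0.14 with the endothelial sum. The part of these cell types in the differences was not tested.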

How the data were processed

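Poly(A) RNA of 15 birds was sequenced, and which of the named isolation kits served each library is not stated. The authors trimmed reads (cutadapt 1.9.1), mapped them to GRCg6a (HISAT2 2.0.1) and deposited whole-number fragment counts for each gene from HTSeq 0.6.1. Deposited FPKM divide those counts by exonic length and library total, and were used here for the filter on level. The sources used here do not say how strand and multiply mapped reads were handled.

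Counts were scaled by relative log expression (RLE) and fitted with edgeR 4.0.16 (R 4.3.3, quasi-likelihood, all 15 birds, no covariates, 12 residual degrees of freedom), with Benjamini-Hochberg adjustment over 11858 genes. Genes were called at 1.5-fold or more and an adjusted p below 0.05. DESeq2 1.42.0 was an alternative, run on 15897 genes with at least 1 count. Standard errors come from the F statistic. Correlations use log2(normalized FPKM + 0.1). In simulated data edgeR recovered 54% of genes changed 2-fold and 89% of those changed 4-fold in the β-alanine comparison, and 30% and 82% in the L-histidine comparison (11858 genes each). Each comparison drew its own random genes, so these shares do not rank the comparisons. Recovery was scored at an adjusted p below 0.05 without the fold limit, and the simulated libraries had no length slope. False calls made up 3.4% of calls in both, and 8.6% between the supplements.

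The genes and lists were chosen with earlier results of these data known. All 10 genes are named, with the 3 pathway genes of smallest p in each direction and comparison, and the 3 genes most correlated with each, apart from some genes not reported here. Chromosome names come from the same symbols in GRCg7b, and coordinates are those of the deposited table. Sequences are not shown. The study also measured IGF2BP3 and FOXO1 by qPCR and reported the same direction as by sequencing in both comparisons with control birds. The qPCR used the RNA extracted from these birds, with β-actin as the reference, so it is no independent set of birds. By sequencing ACTB had log2 fold changes of -0.35 and -0.22 with β-alanine and L-histidine (adjusted p = 0.495 and 0.498 by edgeR). The part of the reference in the qPCR values was not tested. The qPCR measurements were not analysed here.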

Additional observations from a re-analysis of the deposited data

Results flagged for a closer look

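IGFBP7 had 29.8 normalized FPKM in L-histidine replicate 3, whereas the other 4 birds of the group lay between 13.2 and 17.8. Of 30 sets of 5 birds examined for such a distant bird, this was the 1 found, and chance gives about 1 in 20. Without this bird the log2 fold change of IGFBP7 in the L-histidine group was -0.34.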

How the results depend on the processing

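Log2 fold changes of the genes named here were recomputed under other scalings, filters, models and sets of birds, and 1197 of 1228 values kept their direction and their side of the limit, while 25 changed sign and 6 passed the limit. No alternative called any of the 8 tested IGF genes other than IGF2BP3. That gene was set aside because it was chosen on these contrasts, and it was not among the values that passed the limit. For IGF2, DESeq2 on all 15 birds gave no adjusted p in the L-histidine group. The filter at a mean FPKM of at least 1 left IGF2 out, so neither setting could call it there. Counts of called genes were 0 in each comparison, against 56, 225 and 0 by DESeq2 on all 15 birds and 76, 92 and 1 by DESeq2 on only the 10 birds compared, a fit added after seeing the data (β-alanine over control, L-histidine over control, and L-histidine over β-alanine), and edgeR on only the 10 birds compared called 1 with L-histidine. Leaving out each bird in turn gave 0 to 1 called with β-alanine and 0 to 2 with L-histidine. The causes were not tested.

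Without scaling, the median of all genes moved by 0.18 with β-alanine and 0.29 with L-histidine on the log2 scale, and the log2 fold change was 0.079 for IGFBP3 with β-alanine, 0.19 for IGFBP7 with L-histidine and 0.072 for IGF2 between the supplements. Without control replicates 3 and 4 (chosen after seeing the data), IGF2BP1 was at 0.025 and 0.096 with β-alanine and L-histidine, and with L-histidine IGFBP3 was at -0.050 and IGFBP7 at 0.089. Genes at an unadjusted p under 0.05 then numbered 769 and 764, against 1262 and 2273. With the length trend removed (also chosen after seeing the data), IGFBP3 was at 0.0078 with β-alanine and IGF2BP3 at -0.0032 between the supplements. Leaving out each bird in turn gave -0.34 to 0.0085 for IGFBP7 with L-histidine, and between the supplements -0.31 to 0.12 for IGF2, -0.14 to 0.31 for IGF2BP1, -0.12 to 0.23 for IGF2BP3 and -0.28 to 0.060 for IGFBP4. The 6 values past the limit were by DESeq2 in the L-histidine group, for IRS2, IGF1R, TSC1 and EIF4EBP1.

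The replicate number did not pair the birds, since deviations of same-numbered birds had correlations of -0.09 to 0.25, -0.11 to 0.13 and -0.23 to 0.05 in the 3 comparisons. With the replicate block, 0 genes were called in each comparison, and IGFBP4 was at 0.0038 between the supplements. With a mean FPKM of at least 1 as the filter, IGF2 and IGF2BP3 were not tested and have no value. IGF1, at 14 fragments over 15 birds, was below what this depth can compare.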

Other observations

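A list of 14 genes that work with IGF2BPs or are bound by them was also read. Of the 12 in the table, LIN28A, LIN28B and HMGA2, fetal partners and targets in mammals, were under the limit of 0.2 for the mean FPKM, and 9 were tested. By edgeR 0 passed in any comparison, and 0 had an unadjusted p under 0.05. ACTB, whose mRNA IGF2BP1 binds, had 244 normalized FPKM in β-alanine birds and 311 in control birds on average, a log2 fold change of -0.35 (standard error 0.18, adjusted p = 0.495 by edgeR). The median log2 fold change of the 9 genes was -0.03 with β-alanine and 0.07 with L-histidine, against -0.02 and 0.01 over all genes.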
